A study of Saccharomyces cerevisiae with 24 samples.

Results

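The genes PDC1 and PDC5 encode the main pyruvate decarboxylases of Saccharomyces cerevisiae, and their array signals were followed over the growth of a fermenting strain and a respiring strain. They are 2 of the 6330 probes of a filter cDNA array and were taken by their spot numbers. PDC1 (YLR044C) and PDC5 (YLR134W) were each printed once per array. Both genes lie on the right arm of chromosome XII in the RefSeq table for yeast. The identity of the spots rests on the numbers given for the 2 genes, and for each gene the spot was the 1 probe whose values in the authors' table fitted the factor and base expression value listed for it. Strain differences from that table, or from the scanner values of the same arrays, are therefore no independent check of the listed factors. For PDC1 its place in the print order gave the same gene, since the distance to 13 of 14 named probes of the same source plate equalled the distance in ORF number. For PDC5 that distance was equal for 2 of 14, with the rest on the plate shifted.

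Pyruvate decarboxylase removes carbon dioxide from pyruvate and gives acetaldehyde, which alcohol dehydrogenase reduces to ethanol, so the enzyme stands where fermentation parts from respiration. It needs thiamine pyrophosphate as a cofactor. Pdc1 is the major isozyme in cells growing on glucose, Pdc5 is a closely related minor isozyme whose gene is known to be expressed strongly when PDC1 is deleted and to be repressed by thiamine, and the remaining isozyme, Pdc6, is little used on glucose. The PDC1 and PDC5 coding sequences are alike over most of their length, so that PCR-product probes of either gene may capture labelled cDNA of the other. How much of each signal came from the other gene was not tested, and the members are not independent measurements in that respect.

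RNA came from bioreactor cultures in minimal medium at 30 °C and pH 5 that began with 5% glucose. V5 is a wine yeast, used here as the parental strain. V5.TM6*P lacks the hexose transporter genes HXT1 to HXT7 and carries in their place the chimeric HXT1-HXT7 transporter gene TM6*. Both strains were ura3 and had URA3 integrated, so both grew without uracil. There were 6 RNA samples per strain, each hybridized to 2 arrays, and they fell into 3 levels of residual glucose. At high glucose, above 30 g/L, the samples were V5 at 38.4 and 35.0 g/L and V5.TM6*P at 36.5 and 34.8 g/L. At middle glucose, between 20 and 30 g/L, V5 was taken at 25.5 and 24.4 g/L and V5.TM6*P at 26.3 and 25.1 g/L. At low glucose, under 20 g/L, V5 was taken at 10.5 and 7.4 g/L while the V5.TM6*P samples stood at 13.5 g/L and at 5.6 g/L. The samples of a strain came from 2 fermentations, and the labels do not say which sample came from which. The 6 samples of a strain are therefore repeated draws from 2 cultures. Every test below treats them as independent, so its p-values may be too small as statements about cultures and measure only the spread between these samples, part of which may be technical.

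Each value below is the spot signal over local background, as log2 over the array median, averaged over the 2 arrays of an RNA sample. A value of 0 is the signal of the median probe of the same array, and each further unit is a 2-fold higher signal. Levels are compared between samples for the same probe only, since the signals of different probes on such an array have no common scale. The 24 arrays had median net signals of 11.4 to 22.9 intensity units over median backgrounds of 12.1 to 31.5. Image names in the scanner files give 3 of the 24 arrays an array code ending in 03 and the others a code ending in 04. The sample titles give the code ending in 03 for all, and what the code stands for is not stated. The 3 arrays are the pair of the V5.TM6*P sample taken at 36.5 g/L and 1 of the arrays of its sample at 34.8 g/L. Image code 03 thus holds V5.TM6*P at high glucose only.

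PDC1 gave a high and steady signal in V5. Its level was 4.76 at 38.4 g/L, 4.91 at 35.0, 4.90 at 25.5, 4.86 at 24.4, 4.62 at 10.5 and 4.86 at 7.4 g/L. These values lay within 0.29 of each other, which is less than the largest difference between the 2 arrays of a single V5 sample (0.62). No order among the V5 samples can therefore be read for PDC1. The mean was 4.82 ± 0.11 (SD, n = 6), or 28.2 times the array median as a geometric mean.

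In V5.TM6*P the PDC1 signal was lower and more variable. It stood at 2.86 at 36.5 g/L, 3.55 at 34.8, 2.63 at 26.3, 2.59 at 25.1, 1.74 at 13.5 and 2.62 at 5.6 g/L. The sample at 34.8 g/L was the highest and the sample at 13.5 g/L the lowest, and the other 4 samples lay between 2.59 and 2.86. The arrays of the lowest sample differed by 0.91, the largest difference between arrays for this gene. The mean was 2.67 ± 0.58 (SD, n = 6), 6.34 times the array median. The strains did not overlap, and the nearest samples, V5 at 10.5 g/L and V5.TM6*P at 34.8 g/L, were 1.07 apart, a 2.10-fold gap. Single arrays did not overlap either, the lowest V5 array being at 4.36 and the highest V5.TM6*P array at 3.57.

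PDC5, the minor isozyme gene, was likewise well above the array median in V5. Its level was 3.81 at 38.4 g/L, 4.06 at 35.0, 4.39 at 25.5, 4.38 at 24.4, 4.00 at 10.5 and 4.27 at 7.4 g/L. The 2 middle samples were the highest, and the sample at 38.4 g/L was the lowest. The V5 samples spanned 0.58, while the 2 arrays of a sample differed by 0.01 to 0.27. The mean was 4.15 ± 0.23 (SD, n = 6), 17.8 times the array median.

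In V5.TM6*P the PDC5 signal was lower, at 1.48 to 3.95 times the array median. The level was 0.56 at 36.5 g/L, 1.98 at 34.8, 1.68 at 26.3, 1.13 at 25.1, 0.63 at 13.5 and 0.84 at 5.6 g/L. The lowest and the highest of these samples were the 2 high-glucose samples, so this gene showed no common level there. The lowest was the sample for which both arrays had image code 03. Arrays of a sample differed by 0.35 to 0.84. The mean was 1.14 ± 0.58 (SD, n = 6), 2.20 times the array median. The strains were again apart, with a gap of 1.83 (3.55-fold) between V5 at 38.4 g/L and V5.TM6*P at 34.8 g/L. The lowest V5 array was at 3.68 and the highest V5.TM6*P array at 2.18.

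**Figure D1:**
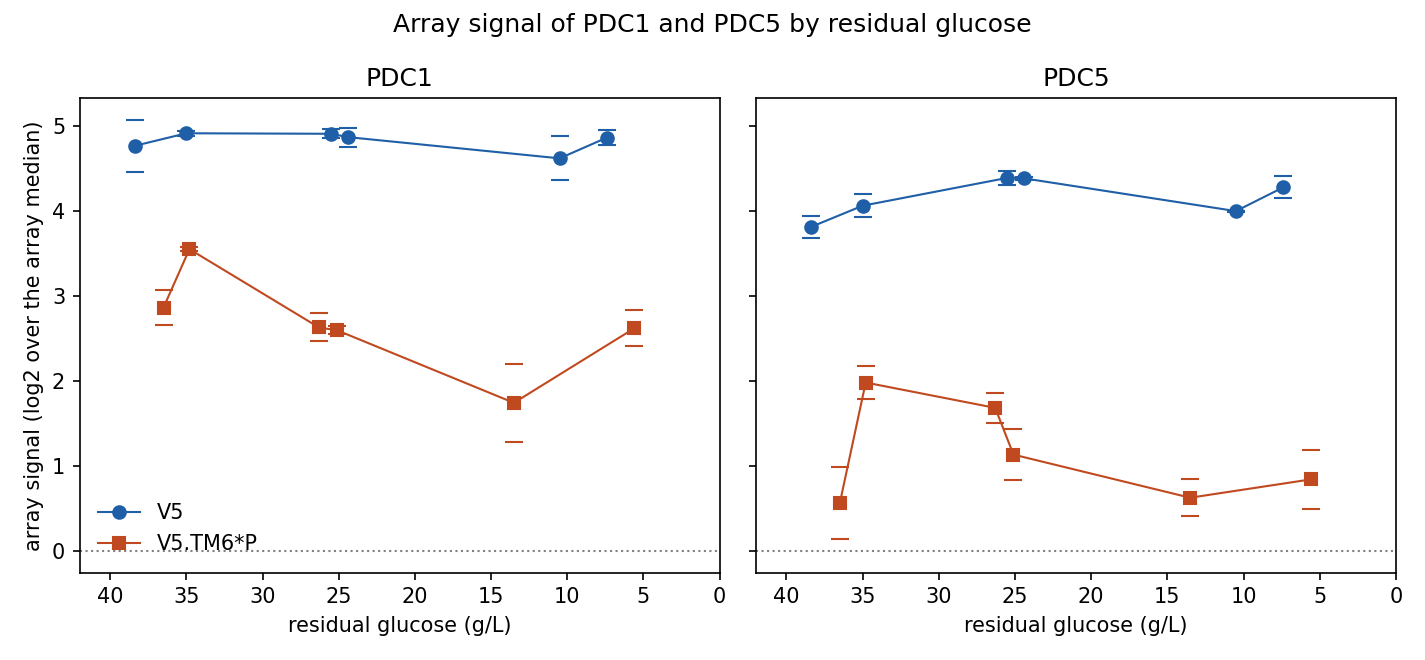
Array signal of PDC1 (left) and PDC5 (right) as log2 over the array median (vertical axis) against residual glucose in g/L (horizontal axis, falling to the right) in V5 (circles) and V5.TM6*P (squares). Symbols are means of the 2 arrays of an RNA sample, dashes the single arrays, and lines join the samples of a strain by glucose; V5.TM6*P lies below V5 throughout, with the nearest samples 1.07 apart for PDC1 and 1.83 for PDC5.

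The signals were measured above background in every sample, with different margins. The net PDC1 signal was 243 to 614 intensity units in V5, 14.9 to 25.9 times the local background, and 36.7 to 196 units in V5.TM6*P, 1.94 to 9.05 times the background. For PDC5 the net signal was 188 to 366 units in V5, 8.93 to 17.2 times the background, and 17.6 to 74.7 units in V5.TM6*P, 1.03 to 4.29 times the background. Neither spot was marked empty on any of the 24 arrays, and the brightest spot of each array, at 3529 units or more, was far brighter than either. Of the 8 spots touching each member, the median net signals were 1.83 to 39.4 units around PDC1 and 4.10 to 47.3 units around PDC5 in V5. In V5.TM6*P they were 2.47 to 37.1 and 1.91 to 36.5 units, so in that strain the PDC5 spot and some of its neighbours had signals of like size.

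Both genes were lower in V5.TM6*P. PDC1 fell by 2.15 on the log2 scale (SE 0.23, 95% interval -2.66 to -1.65, 4.45-fold lower, limma adjusted p = 1.77e-04). PDC5 fell by 3.01 (SE 0.25, 95% interval -3.55 to -2.48, 8.07-fold lower, limma adjusted p = 3.68e-05). Each was lower at 6 of 6 sampling points when the samples of the strains were set side by side in order of falling glucose. As the strains did not overlap for either gene, any other matching of samples would give the same count. Lower calls were made for 5.4% of all probes (342 of 6330), and the V5.TM6*P samples all lay below the V5 samples for 3.24% of probes. The median over all probes was -0.05. In the fit as described no probe had a lower fold than PDC5, and over all 26 fits of the strain comparison at most 1 called probe did. For PDC1 the number of called probes with a lower fold was 4, and 1 to 9 over the 26 fits. The study had already reported PDC1 and PDC5 as its most strongly repressed genes, and all fits use the same arrays. These ranks are therefore a description and no separate evidence.

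The size of the PDC5 difference depended on the processing. With a model-based background correction (normexp with an offset of 50, then quantile normalization) the PDC5 difference was -1.86 and that of PDC1 -1.66, and both kept their calls (limma adjusted p = 2.32e-06 and 1.21e-05). In the authors' processed table the differences were -2.54 and -2.08, while a floor of 1 left them at -3.01 and -2.15. Quantile normalization without normexp left them at -2.97 and -2.13, so the smallest sizes came with the normexp step. Whether its offset of 50 or the correction itself sets the size was not tested, nor was the source of the sizes in the authors' table.

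The question whether the difference held at each stage of the culture was addressed with the 2 samples of each strain at each glucose level, which share 1 estimate of the spread. Above 30 g/L PDC1 differed by -1.63 (SE 0.34, limma adjusted p = 0.0449) and PDC5 by -2.66 (SE 0.43, limma adjusted p = 0.0226), where 0.821% of probes were called lower. Between 20 and 30 g/L the differences were -2.27 for PDC1 (SE 0.34, limma adjusted p = 0.0247) and -2.98 for PDC5 (SE 0.43, limma adjusted p = 0.0234), with 0.0948% of probes called lower. That is 6 probes, of which PDC1 and PDC5 were 2, and the number called in either direction, 42 here, was 0 to 281 over the alternatives. Under 20 g/L they were -2.56 for PDC1 (SE 0.34, limma adjusted p = 0.0290) and -3.40 for PDC5 (SE 0.43, limma adjusted p = 0.0259), with 0.111% called lower, 7 probes in all, the number in either direction being 26 here and 3 to 221 over the alternatives. In folds, PDC1 was 3.10, 4.84 and 5.89 times lower at high, middle and low glucose, and PDC5 6.33, 7.86 and 10.6 times lower.

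With 2 samples per group these level calls were sensitive to single samples. At high glucose the PDC1 call was lost with any sample left out other than V5.TM6*P at 13.5 or at 5.6 g/L (limma adjusted p up to 0.162), and the PDC5 call without V5 at 38.4 or 35.0 g/L or V5.TM6*P at 36.5 g/L (up to 0.0911). At middle glucose both calls were lost when a single sample of the 4 at that level, whichever it was, was left out, and that of PDC5 also without either low-glucose sample of V5.TM6*P (limma adjusted p up to 0.128). At low glucose both were lost when a single V5 sample, whichever it was, or V5.TM6*P at 26.3, 25.1 or 13.5 g/L was left out (limma adjusted p up to 0.0887 for PDC1 and 0.103 for PDC5). In all of these the differences stayed negative. Without the arrays of image code 03, which leaves a single V5.TM6*P sample at that level, the high-glucose difference was -1.31 for PDC1 and -2.15 for PDC5. In the fit as described the strain difference was smallest in size at high glucose and largest at low glucose for both genes, and the change itself did not pass the test. This order did not hold in every alternative. PDC1 was lowest at middle glucose in the authors' table (-2.47, against -2.43 at low glucose), with normexp (-1.86 against -1.84) and without V5.TM6*P at 13.5 g/L (-2.27 against -2.12). PDC5 was lowest at middle glucose on second arrays only (-3.26 against -3.06), and without V5.TM6*P at 34.8 g/L its high-glucose difference (-3.37) exceeded the middle one (-2.98). The high-glucose difference minus the low-glucose one was 0.93 for PDC1 (SE 0.47, 95% interval -0.16 to 2.01, limma adjusted p = 0.669) and 0.74 for PDC5 (SE 0.60, 95% interval -0.64 to 2.12, limma adjusted p = 0.779). None of the 6330 probes was called in that limma comparison (0%), and 494 had an unadjusted p under 0.05.

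**Figure D2:**
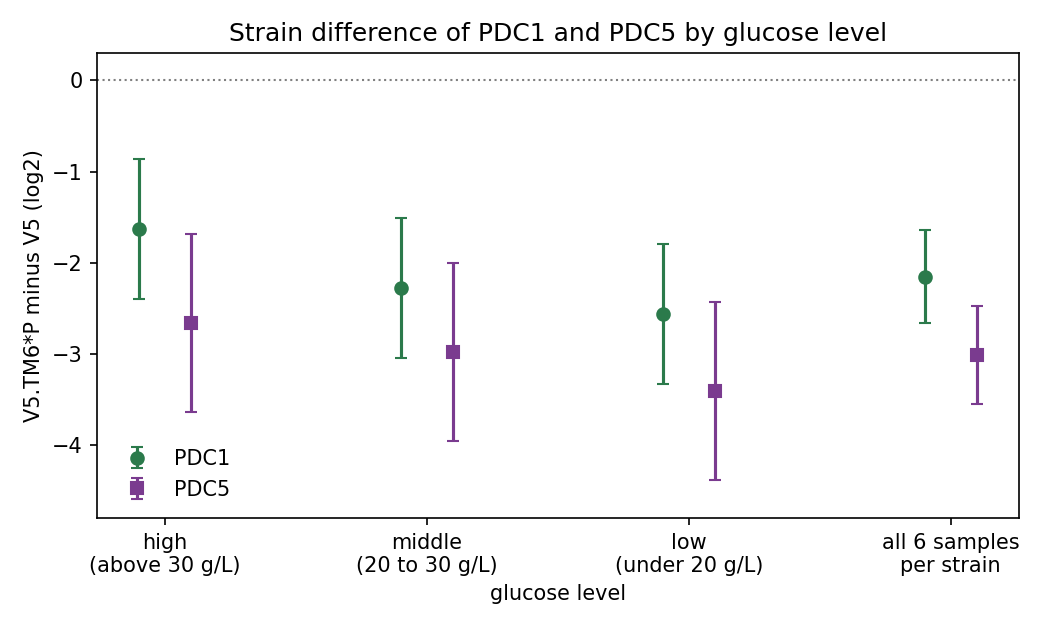
Difference of V5.TM6*P minus V5 on the log2 scale (vertical axis) for PDC1 (circles) and PDC5 (squares) at high, middle and low glucose (2 samples per strain each) and over all 6 samples per strain (horizontal axis); bars are 95% intervals from limma. All intervals lie below 0, and those of the 3 levels overlap for each gene, from -1.63 to -2.56 for PDC1 and -2.66 to -3.40 for PDC5 as central values.

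Dependence on residual glucose was also tested with 1 straight line per strain. In V5 the PDC1 line rose by 0.09 on the log2 scale over 30 g/L (95% interval -0.75 to 0.94, limma adjusted p = 0.963) and the PDC5 line changed by -0.21 (95% interval -1.23 to 0.81, limma adjusted p = 0.918). Only 1 of the 6330 probes was called for the V5 slope in limma (0.0158%), neither member among them, while 770 had an unadjusted p under 0.05. The number of probes called ran from 0 to 151 over the alternatives, none of which called PDC1 or PDC5. In V5.TM6*P the PDC1 line gave 0.92 more signal on the log2 scale over 30 g/L (95% interval 0.04 to 1.80, unadjusted limma p = 0.0412, adjusted p = 0.800) and the PDC5 line 0.58 more (95% interval -0.49 to 1.64, limma adjusted p = 0.937). No probe was called for that slope or for the slope difference in limma (0% each), and 378 and 515 probes had an unadjusted p under 0.05. Single samples moved these slopes. Per g/L the PDC1 slope in V5.TM6*P was 0.0308, and it was 0.0634 without the sample at 5.6 g/L (unadjusted limma p = 0.00146, adjusted p = 0.215), 0.0183 without that at 34.8 g/L and 0.0185 without that at 13.5 g/L. The PDC5 slope was 0.0192, and it was 0.0432 without the sample at 36.5 g/L (limma adjusted p = 0.619), 0.00463 without that at 34.8 g/L and 0.0128 without that at 13.5 g/L.

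No difference of slopes between the strains passed the test. The V5.TM6*P slope minus the V5 slope, over 30 g/L, was 0.83 for PDC1 (95% interval -0.39 to 2.05, limma adjusted p = 0.741) and 0.78 for PDC5 (95% interval -0.69 to 2.26, limma adjusted p = 0.799). These intervals are wide, so neither a change with glucose nor its absence was shown for either gene.

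Correlations with glucose within a strain, 4 relations over 6 samples each, gave the same picture. For PDC1 in V5.TM6*P Pearson's r was 0.64 (exact permutation p = 0.158, adjusted 0.511) and Spearman's rho 0.77 (exact permutation p = 0.103, adjusted 0.411), and r was 0.69 without the 2 samples farthest from the median glucose. For PDC5 in V5.TM6*P r was 0.40 (exact permutation p = 0.442, adjusted 0.511) and rho 0.09 (exact permutation p = 0.919, adjusted 0.919), and r was -0.21 without those samples. In V5, r was 0.34 for PDC1 (exact permutation p = 0.511, adjusted 0.511) with rho 0.31 (exact permutation p = 0.564, adjusted 0.752). For PDC5 in V5 r was -0.37 (exact permutation p = 0.439, adjusted 0.511) and rho -0.31 (exact permutation p = 0.564, adjusted 0.752). Without the 2 farthest samples r in V5 was -0.56 for PDC1 and -0.98 for PDC5, each over 4 samples. In both strains the 2 samples left out were the low-glucose ones. The 4 that remain are a pair at high and a pair at middle glucose, so these r values mainly compare those levels.

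The 2 genes were then compared in the size of their strain difference, using the PDC5 level minus the PDC1 level within each sample, so that effects common to an array cancel. The offset between the 2 probes has no meaning of its own, and only its change between strains is used. It was -0.67 ± 0.19 (SD, n = 6) in V5, from -0.95 to -0.48, and -1.53 ± 0.48 (SD, n = 6) in V5.TM6*P, from -2.30 to -0.95. The strains overlapped only in V5 at 38.4 g/L and V5.TM6*P at 26.3 g/L, both at -0.95. PDC5 therefore fell further than PDC1 by 0.86 on the log2 scale (SE 0.21, 1.81-fold, exact two-sided permutation p = 0.00433 over all divisions of the 12 samples).

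The size of this further drop depended on the processing. It was -0.20 with normexp and an offset of 50 (exact permutation p = 0.130) and -0.47 in the authors' table (exact permutation p = 0.0195). With the low-glucose samples left out its size was kept, at -0.87, but the test on 4 samples per strain did not pass (exact permutation p = 0.0571). The PDC5 signal in V5.TM6*P was nearer to background than any other of the 4, down to 1.03 times it, and the part of this in the difference was not tested.

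**Figure D3:**
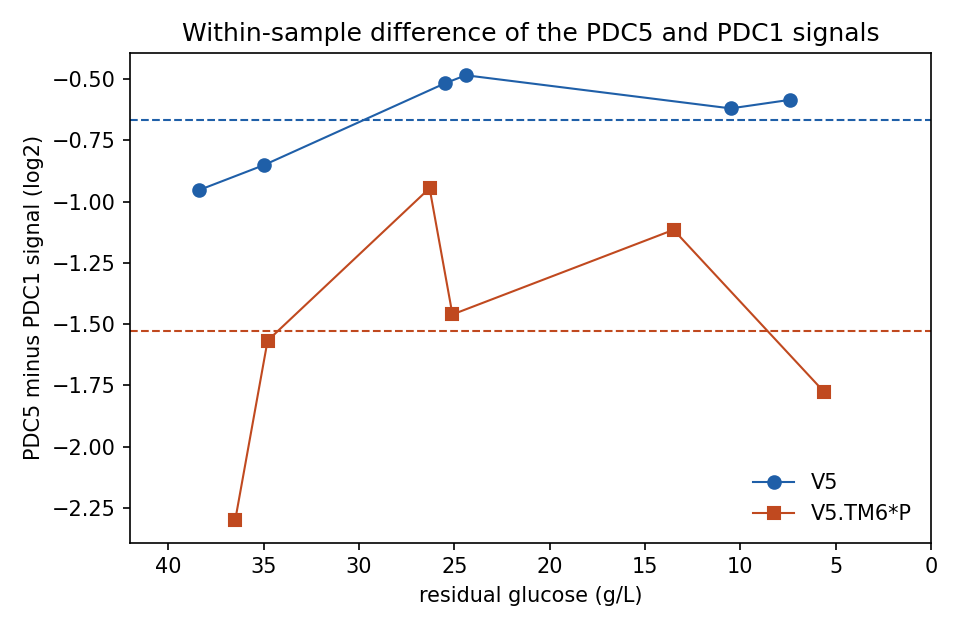
PDC5 minus PDC1 array signal within each RNA sample on the log2 scale (vertical axis) against residual glucose in g/L (horizontal axis, falling to the right) in V5 (circles) and V5.TM6*P (squares), with dashed lines at the strain means of -0.67 and -1.53. The V5.TM6*P samples lie below the V5 samples except at 26.3 g/L, which matches V5 at 38.4 g/L (-0.95), and the sample at 36.5 g/L is the lowest (-2.30).

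Within a strain the 2 genes were not shown to vary together. Over the 6 V5 samples r between PDC1 and PDC5 was 0.59 (exact permutation p = 0.208, adjusted 0.208) and rho 0.60 (exact permutation p = 0.242, adjusted 0.483). Over the 6 V5.TM6*P samples r was 0.65 (exact permutation p = 0.175, adjusted 0.208) and rho 0.37 (exact permutation p = 0.497, adjusted 0.497). Without the 2 samples farthest from the median PDC1 level r was -0.45 in V5 and -0.64 in V5.TM6*P, so the positive values rested on those samples. The 2 relations were the whole family.

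The likeness of other probes to each member was measured as Pearson's r over the 12 RNA samples, among 3078 probes with a mean above the array median. These values are set mainly by the gap between the strains and are given as a description. The probe most like PDC1 was PDC5 (r = 0.97), followed by YCR102C (0.96), the peroxiredoxin gene AHP1 (0.95), the methionyl-tRNA synthetase gene MES1 (0.93) and the sphingoid base phosphate phosphatase gene LCB3 (0.93). For PDC5 the first was a probe with no name (0.97), then PDC1 (0.97), NSG1, a regulator of sterol synthesis (0.95), YER087C-A (0.95) and LCB3 (0.95). After the strain means were subtracted, the 5 probes most like each member had no name, with r from 0.88 to 0.93 for PDC1 and 0.78 to 0.86 for PDC5. PDC5 then came at place 204 for PDC1, and PDC1 at place 42 for PDC5 (r = 0.64).

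The genes around the reaction are given next, from lists of 84 ORFs in all, of which 32 could be named on the array. Names were available only for genes that the study had listed as changed in these samples, so the counts are not independent evidence and say nothing of the genes not named, such as PDC6, ADH1 and ADH2, which were not analysed here. All comparisons are V5.TM6*P minus V5 over 6 samples per strain, with adjusted p from limma, in which 6.79% of all probes were called higher and 5.4% lower. In all 11 of the 32 were called higher and 14 lower. Of these 25 calls, 13 held in each of the 25 alternative fits.

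Upstream of pyruvate, 6 of the 10 named genes of glycolysis fell, 2 rose and 2 did not pass, with a median of -0.56 on the log2 scale. CDC19, the main pyruvate kinase gene, went from 3.11 ± 0.60 to 1.88 ± 0.35 (SD, n = 6), 0.425 times the V5 value (limma adjusted p = 0.0106). The enolase gene ENO2 fell to 0.536 times (limma adjusted p = 0.0139), and ENO1, TPI1, TDH2 and TDH3 to between 0.531 and 0.683 times, calls lost in 9 to 18 of 25 alternative fits. ENO1 and ENO2, and TDH2 and TDH3, are near-identical pairs whose probes may share signal, and the TDH2 difference was -0.07 after quantile normalization (limma adjusted p = 0.751). HXK1 and GLK1, which encode hexose-phosphorylating kinases, rose 7.49-fold and 3.92-fold (limma adjusted p = 0.00921 and 0.0107). Their V5 samples were spread widely, from 1.32 to 5.62 for HXK1 and from -0.32 to 2.55 for GLK1. The lowest V5.TM6*P samples stood at 6.12 and 2.60. PFK1 was at -0.51 (limma adjusted p = 0.0949) and PYK2, the second pyruvate kinase gene, at 0.80 (limma adjusted p = 0.0657). They were called in 5 and 6 of 25 alternative fits. The V5.TM6*P and V5 samples did not overlap for HXK1 and GLK1, while they did for the 6 glycolytic genes that fell, unlike PDC1 and PDC5.

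Downstream of acetaldehyde few genes could be named. Among alcohol dehydrogenases, SFA1, a bifunctional alcohol and formaldehyde dehydrogenase gene, rose 1.82-fold (limma adjusted p = 0.0367), a call that was lost in 12 of 25 alternative fits. The mitochondrial ADH3 was at 0.60 (limma adjusted p = 0.0786) and was called in 3 of 25 alternative fits. Its strains did not overlap, the highest V5 sample being at 6.41 and the lowest V5.TM6*P sample at 6.47. Of the genes that turn acetaldehyde into acetyl-CoA, ALD6, the main cytosolic acetaldehyde dehydrogenase gene, rose from 2.43 ± 0.46 to 3.72 ± 0.41 (SD, n = 6), 2.46-fold (limma adjusted p = 0.00503). The acetyl-CoA synthetase gene ACS2 was at 0.11 (limma adjusted p = 0.691).

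The list of other fates of pyruvate also holds genes annotated as lactate dehydrogenases, which act between lactate and pyruvate. The direction of these reactions in the cells was not measured. Of its 6 named genes 3 rose, 2 fell and 1 did not pass. CYB2, which encodes the lactate dehydrogenase that makes pyruvate from L-lactate in mitochondria, rose 8.82-fold (limma adjusted p = 2.87e-04). MPC3, which encodes the subunit of the mitochondrial pyruvate carrier used in respiring cells, rose 4.62-fold (limma adjusted p = 3.61e-04), from 0.78 ± 0.58 to 2.99 ± 0.38 (SD, n = 6). MPC2, which encodes the alternative subunit used in fermenting cells, fell to 0.666 times (limma adjusted p = 0.0199), a call lost in 4 of 25 alternative fits (adjusted p up to 0.159). LPD1, the dihydrolipoamide dehydrogenase shared by pyruvate dehydrogenase and related complexes, rose 1.84-fold (limma adjusted p = 0.00373). DLD3, a cytosolic D-lactate dehydrogenase gene, fell to 0.420 times (limma adjusted p = 0.00171). DLD2 was at 0.40 (limma adjusted p = 0.123) and was called in 3 of 25 alternative fits.

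Genes for thiamine, the source of the cofactor, moved both ways, 3 of 8 named rising and 5 falling. SNZ3 and SNZ2, near-identical genes of vitamin B6 metabolism that lie beside thiamine synthesis genes, rose 2.79-fold and 3.10-fold (limma adjusted p = 1.77e-04 and 5.34e-04). THI4, which makes the thiazole part of thiamine, rose by 0.59 on the log2 scale (limma adjusted p = 0.00516). THI6, which joins the parts into thiamine phosphate, fell to 0.592 times (limma adjusted p = 0.00218), and PET18 to 0.475 times (limma adjusted p = 6.96e-04). PHO3, a thiamine-repressible acid phosphatase gene, THI20, which phosphorylates a thiamine precursor, and THI80, the thiamine pyrophosphokinase gene, fell to 0.342, 0.478 and 0.667 times. The calls of THI20 and THI80 were lost in 10 and 12 of 25 alternative fits. That of PHO3 was lost in 1, and its difference ran from -1.79 to -0.20 over the alternatives. PHO3 and THI80 lay below the array median, at -0.08 and -0.90 in V5 and at -1.63 and -1.49 in V5.TM6*P. The median of the 8 was -0.67.

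In the list of related decarboxylases and regulators only 2 of 9 could be named. PXP1 (YEL020C), a protein with distant likeness to Pdc1, rose 1.89-fold, from 0.84 ± 0.10 to 1.76 ± 0.24 (SD, n = 6, limma adjusted p = 0.00106). GCR1, an activator of glycolytic genes, was at -0.48 (limma adjusted p = 0.138) and was called in 2 of 25 alternative fits. Of 12 ORFs beside the members on chromosome XII, 2 could be named, both near PDC1. YLR046C fell to 0.602 times (limma adjusted p = 0.0148), and NFG1 (YLR042C) was at 0.45 (limma adjusted p = 0.180).

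**Figure D4:**
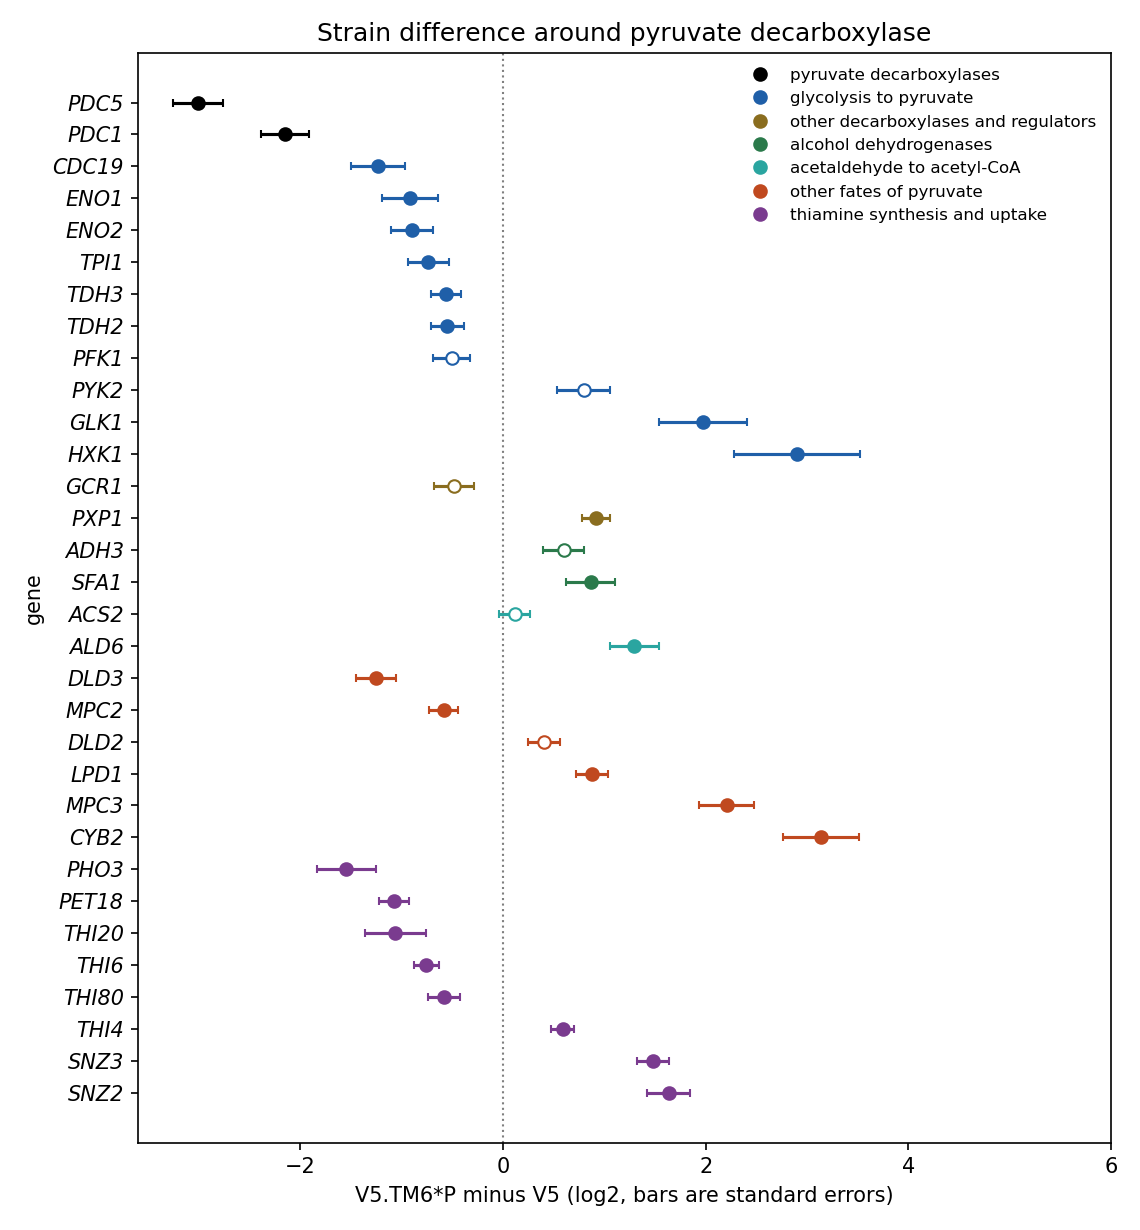
Difference of V5.TM6*P minus V5 on the log2 scale (horizontal axis) for PDC1, PDC5 and the 30 named genes of the 6 metabolic and regulatory lists (vertical axis, coloured by list). Points are limma estimates with standard errors, filled where adjusted p was under 0.05; PDC5 (-3.01) and PDC1 (-2.15) are the lowest points shown and CYB2 (3.14) the highest.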

How the data were processed

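RNA of 12 samples was amplified, labelled with radioactive phosphorus and hybridized to 24 filter arrays. The authors scanned phosphor screens and deposited, for each of 9600 spots, median pixel intensity values of the spot and its local background, not yet subtracted. Their table holds background-subtracted intensity values for 7477 spots (6330 probes, 1147 spotted as a pair), with a scaling that was not stated. From the deposited scanner values the background was subtracted, values under 0.1 were set to 0.1 (1.49% of values), log2 was taken, paired spots were averaged, each array was centred on its median, and a mean was taken over the arrays of each sample.

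Strains, glucose levels and slopes were compared with limma 3.58.1 (R 4.3.3) on all probes with Benjamini-Hochberg adjustment (called at adjusted p under 0.05), and single values with exact permutation tests (scipy 1.17.1). Fits were tested on simulated data. The members and lists were chosen with earlier results of these data known. Named genes were, beside the members, the list genes with the smallest adjusted p in each direction, and the 5 probes most like each member. Other list genes are given by values without such a rule. In all 1048 probes were named by matching values computed from the authors' table to the factor and base expression value in the additional files, with print order where several fitted, and 983 of these names were in the RefSeq table. The number of arrays limits the precision, and the Flag column marked empty spots. No sequences are shown, since the tables used here hold none.

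Same-numbered samples of the strains share a place in the sampling order and a glucose level, and the labels give no other link. The correlation of their deviations from the strain means was low, 0.02 to 0.05 over all probes. Even so, 5 of 6 V5 samples correlated best with the V5.TM6*P sample of their own number. No pairing was assumed in the main fits, and a fit with sampling point as a replicate block is given below.

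Alternatives used a floor of 1, centring ahead of the floor, quantile normalization, normexp (offset 50), the authors' table, empty spots as missing, a variance trend, glucose as covariate or on a log scale, and fewer samples or arrays.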

Additional observations from a re-analysis of the deposited data

Results flagged for a closer look

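In 68 sets of 6 samples (PDC1, PDC5 and the 32 named list genes in each strain), 4 held a sample far from the others, where chance alone flags about 1 in 20. None of them was PDC1 or PDC5. In V5 at 10.5 g/L ADH3 was at 5.28 (others 6.22 to 6.41) and ACS2 at 1.05 (others 1.71 to 1.82). In V5.TM6*P ALD6 was at 2.96 at 13.5 g/L (others 3.70 to 4.12) and PET18 at 0.90 at 25.1 g/L (others 1.18 to 1.34).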

How the results depend on the processing

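The strain differences of PDC1 and PDC5 kept direction and call in all 25 alternative fits each, and leaving out each sample gave -2.33 to -1.97 and -3.18 to -2.90. With sampling point as a replicate block these values were the same (limma adjusted p = 0.00311 and 0.00159) and 506 probes were called against 772. In 5 of 6 cases a V5 sample correlated best with the V5.TM6*P sample of its own number, a hint from the data only. The number of probes called was 471 without the low-glucose samples, 316 on first arrays only and 458 on second arrays only.

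Differences at a single glucose level rest on 2 samples per strain, and many lost the call with fewer arrays. On first arrays only PDC1 was at -1.58, -2.09 and -2.51 at high, middle and low glucose, and PDC5 at -2.36 and -2.69 at high and middle, none called. On second arrays only PDC5 lost the call at middle (-3.26) and low glucose (-3.06). Without the arrays of image code 03 PDC1 at high glucose lost the call (-1.31). With each sample left out, the differences ranged at high glucose from -1.97 to -1.29 for PDC1 and -3.37 to -1.95 for PDC5, with 13 of 24 calls lost. At middle glucose they ranged from -2.29 to -2.25 and -3.25 to -2.70, with 10 of 24 lost, and at low glucose from -3.00 to -2.12 and -3.54 to -3.26, with 18 of 24 lost. A lone remaining sample was assumed to vary like the other groups. The direction held throughout, and the cause of lost calls was not tested beyond the smaller number of samples.

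The further fall of PDC5 was -0.20 with normexp and -0.87 without the low-glucose samples, neither past the threshold, and -0.98 to -0.70 with each sample left out. With sampling point as a replicate block the exact sign-flip permutation test gave p = 0.0313. That is the smallest p this test can give here, reached because the difference had the same sign at every sampling point.

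Slopes not called changed sign with the processing, in log2 per g/L. The PDC1 slope in V5 was -0.00133 in the authors' table and -0.00554 without the low-glucose samples, and -0.00133 to 0.0067 with each sample left out. The PDC5 slope in V5 was -0.0135 to 0.00126 with each sample left out. In V5.TM6*P the PDC5 slope was -0.0221 without the low-glucose samples and -0.00413 on second arrays only, where its slope difference was -0.000428. With each sample left out, the V5.TM6*P slopes ranged from 0.0183 to 0.0634 for PDC1 and 0.00463 to 0.0432 for PDC5. Probes called at high glucose numbered 34 to 525 over all alternatives, against 165. ACS2, not called, ranged from -0.00547 to 0.161 (log2) with each sample left out.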
